A study of Mus musculus with 12 samples.

Results

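The transcription factors that give the intestinal epithelium its identity were followed in mice lacking the small GTPases Rab11a, Rab11b or both. The 8 genes were taken by symbol from the 23988 genes of the deposited table: the caudal-type homeobox genes Cdx1 and Cdx2, the nuclear receptor genes Hnf4a and Hnf4g, the zinc finger genes Gata4 and Gata6, and the Krüppel-like factor genes Klf4 and Klf5. RNA of whole jejunal tissue, as labelled, was sequenced from adult mice in 4 groups of 3 libraries each. WT mice were the controls. AKO mice had the genotype Rab11aL/L, VillinCreER+, in which a tamoxifen-inducible Cre under the villin promoter removes floxed Rab11a from the intestinal epithelium and not from the other cells of the gut wall. BKO mice were Rab11b-/-, and DKO mice were Rab11aL/L, Rab11b-/-, VillinCreER+. Mice of all 4 groups, WT included, received tamoxifen at 40 mg/kg and were killed 2 days later. The labels do not state whether WT or BKO mice carried the floxed allele or the Cre, nor that numbered libraries are separate animals, so the p-values measure the spread between these libraries, which may be technical.

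CDX2 is the master regulator of intestinal fate, without which the epithelium turns towards a stomach-like or oesophageal program, and CDX1 is its relative with overlapping functions. HNF4A and HNF4G bind the same sites, can stand in for each other, and drive the genes of absorption and the brush border as cells leave the crypt and climb the villus. GATA4 marks duodenum and jejunum, where it keeps ileal genes off, and it is shut down towards the distal ileum, while GATA6 is present along the whole small intestine. KLF4 is found in differentiated villus cells and goblet cells and restrains division, whereas KLF5 is found in dividing crypt cells and promotes it.

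Several regional markers went against the labelled tissue. Gata4, which a jejunal epithelium should express, was listed at 0.407 to 4.59 fpm, which came from 9 to 125 reads per library. The deposited unit, fpm, is the gene count over a size factor of each library. Lct, the lactase gene of the jejunal brush border, had 16 reads in the 12 libraries together and none in 8 of them. Fabp1, the fatty acid-binding protein of the proximal intestine, was at 1.89 to 8.05 in WT and AKO apart from 12.5 in AKO replicate 2. The ileal bile acid genes were high: Fabp6, the ileal bile acid-binding protein, was at 6109 to 11020 in WT, and Slc10a2, the apical bile acid transporter of the ileum, was at 614 to 713. The duodenal factor gene Pdx1 had 20 reads in all, and 5 of 6 stomach markers were at 0 in the 12 libraries, the exception being Atp4a in WT. Apoa4, an apolipoprotein of lipid uptake that is strongest in the proximal intestine, was intermediate at 158 to 545 in WT. The marker lists as a whole did not separate the regions: 8 jejunal enterocyte genes summed to 11760 to 14400 in WT, with Sis, the sucrase gene, at 1693 to 2058, and 4 ileal genes to 8488 to 13710. Genes of both regions were thus present, the defining jejunal genes Gata4 and Lct were at or near 0, and the tissue is called small intestine below.

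**Figure D1:**
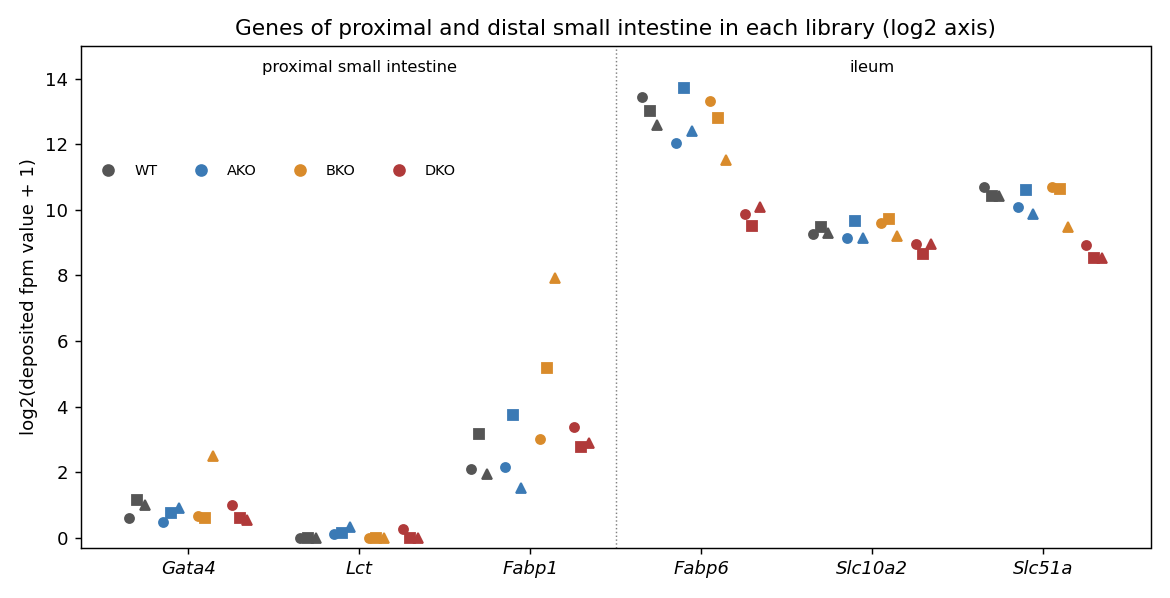
Level of 3 genes of proximal and 3 of distal small intestine in each of the 12 libraries, as log2 of the deposited fpm value plus 1, with colours for the groups and symbols for replicates 1 (circle), 2 (square) and 3 (triangle). Gata4 and Lct lie near 0 in WT, where Fabp6 reaches 11020 fpm, and BKO replicate 3 is the highest library for Gata4 and Fabp1.

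Both deleted genes were lower where the labels name their deletion: Rab11a was at 186 ± 3.87 (SD, n = 3) in WT, 59.4 ± 9.43 in AKO and 106 ± 8.48 in DKO, and Rab11b was at 116 ± 5.07 in WT, 27.0 ± 4.23 in BKO and 22.9 ± 1.55 in DKO. DKO libraries kept more Rab11a transcript than AKO libraries, with a log2 difference of 0.83 ± 0.15 (adjusted p = 0.00254, limma). Libraries held 19200380 to 29828587 reads. BKO replicate 3 stood apart from the other BKO libraries: on the first principal component it lay at 52.8, the DKO libraries at 64.1 to 71.6 and the remaining 8 at -36.7 to -27.2. Xist, the female-specific transcript, was high in 3 of 3 DKO libraries, BKO replicates 1 and 2, WT replicate 1 and AKO replicate 2. In BKO replicate 3 Xist was at 0.22, beside 201 and 254 in BKO replicates 1 and 2.

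Windows from the promoter table of RefSeq (build GRCm38.p6) are shown for 3 of the 8 members: Cdx2, Hnf4a and Klf4. All 3 were lower in DKO, and factors of this set are known to regulate one another. Hnf4g, Gata4 and Klf5 had no entry in that table. Cdx1, which was also lower in DKO, and Gata6 were left out of this part. Each window runs from 250 bases before the annotated start to 50 after it, 5′ to 3′ on the gene's strand. Hnf4a has 2 annotated starts, which the values per gene do not separate. Capitals mark 4 short motifs searched on both strands: AGATAA for GATA factors, CCACCC for Krüppel-like factors (read as GGGTGG from the other strand), CAAAGTC for the core of an HNF4 site and TTTATGG for CDX factors.
Cdx2 chr5:147307200-147307499 (minus strand): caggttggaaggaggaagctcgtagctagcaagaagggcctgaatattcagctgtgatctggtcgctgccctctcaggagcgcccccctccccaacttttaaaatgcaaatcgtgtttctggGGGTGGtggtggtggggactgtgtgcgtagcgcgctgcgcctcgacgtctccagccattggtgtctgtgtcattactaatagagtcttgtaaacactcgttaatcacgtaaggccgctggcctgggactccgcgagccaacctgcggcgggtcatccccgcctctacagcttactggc
Hnf4a chr2:163506607-163506906 (plus strand): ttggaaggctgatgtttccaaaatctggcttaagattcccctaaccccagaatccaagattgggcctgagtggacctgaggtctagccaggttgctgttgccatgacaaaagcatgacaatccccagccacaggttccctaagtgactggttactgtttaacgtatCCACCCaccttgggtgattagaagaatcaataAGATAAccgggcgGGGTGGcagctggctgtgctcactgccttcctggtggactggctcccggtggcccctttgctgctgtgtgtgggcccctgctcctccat
Hnf4a chr2:163546905-163547204 (plus strand): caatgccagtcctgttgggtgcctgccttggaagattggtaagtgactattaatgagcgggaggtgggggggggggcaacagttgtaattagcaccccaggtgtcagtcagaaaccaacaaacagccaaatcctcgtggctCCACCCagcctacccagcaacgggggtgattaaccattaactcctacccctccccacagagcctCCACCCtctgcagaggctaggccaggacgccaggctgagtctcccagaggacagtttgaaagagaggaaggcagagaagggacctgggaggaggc
Klf4 chr4:55532426-55532725 (minus strand): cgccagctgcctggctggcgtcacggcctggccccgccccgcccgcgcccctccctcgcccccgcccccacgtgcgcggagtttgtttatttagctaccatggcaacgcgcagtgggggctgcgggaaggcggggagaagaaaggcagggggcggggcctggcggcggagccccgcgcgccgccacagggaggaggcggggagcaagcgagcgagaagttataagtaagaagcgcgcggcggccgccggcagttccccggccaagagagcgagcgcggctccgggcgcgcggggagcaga
The upstream Hnf4a window held AGATAA starting 52 bases before the start and both orientations of the KLF motif, at 84 and 39 bases before it. The downstream Hnf4a window held CCACCC at 109 and 45 bases before the start, and the Cdx2 window held GGGTGG at 128 bases before it. The Klf4 window held none of these letters, and CAAAGTC and TTTATGG were in none of the 4 windows. Of all 32851 promoter windows in the table, 31.5% held the KLF motif, 11.2% the GATA motif, 4.44% the HNF4 core and 2.75% the CDX motif, so these matches describe the letters of the windows and no binding. The motifs did not overlap.

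With both Rab11 genes deleted, 5 of the 8 factors were lower than in WT: Hnf4g, Klf4, Hnf4a, Cdx2 and Cdx1, in the order of the size of their change. Gata4, Gata6 and Klf5 were not called. All 8 genes passed the filter on low values, a value of 1 or more in 3 or more libraries. Calls are from limma on log2 of the value plus 1 at a Benjamini-Hochberg adjusted p under 0.05 over all 13675 genes tested. In this comparison 31.8% of the tested genes were called, 14.6% higher and 17.2% lower, and the members were 0 higher and 5 lower. How many of all genes had every DKO library below all other libraries was not counted. Such separation, where given below, only describes the member. The median log2 change was -0.44 over the 8 members and -0.00854 over all genes tested. In whole tissue, fewer cells of a type and less RNA per cell cannot be told apart.

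**Figure D2:**
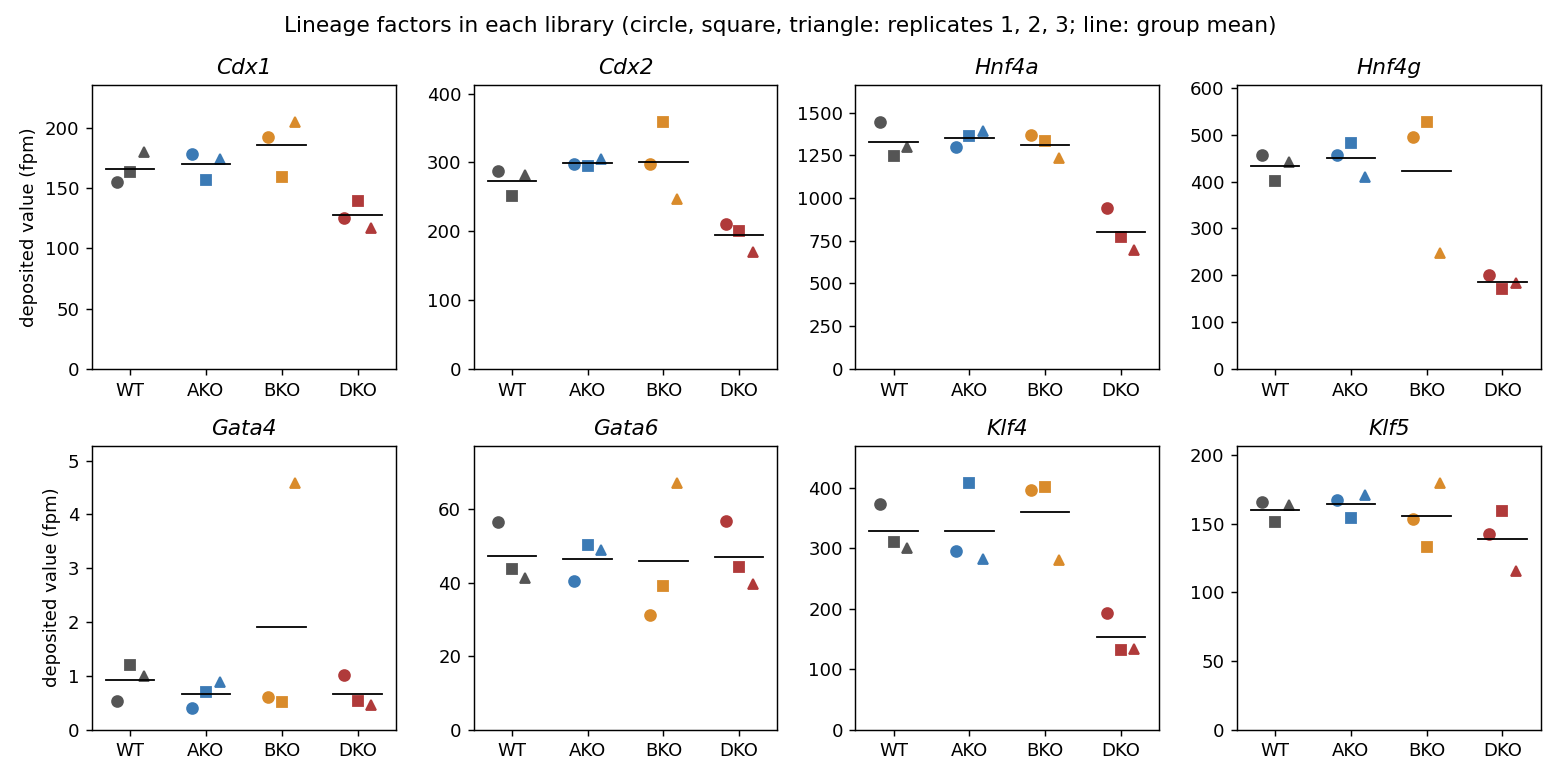
Deposited value (fpm, linear axis from 0) of each of the 8 factors in each library, with 3 libraries per group and a line at the group mean. For Cdx1, Cdx2, Hnf4a, Hnf4g and Klf4 the DKO points lie below the other 9 libraries, and in Hnf4g BKO replicate 3 lies at 248, nearest to DKO. The share of all genes with such separation was not counted.

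Hnf4g, the HNF4 receptor of villus enterocytes, showed the deepest fall of the 8. Its values were 456, 401 and 441 for WT, 456, 483 and 410 for AKO, 495, 528 and 248 for BKO and 202, 170 and 183 for DKO. The DKO libraries lay below the other 9, and among those BKO replicate 3 lay lowest, while WT and AKO overlapped and BKO replicates 1 and 2 lay above both. DKO reached 42.7% of the WT mean, a log2 change of -1.23 ± 0.24 (SE; adjusted p = 0.00395, limma, n = 3 per group).

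Hnf4a, whose receptor shares those sites, had a smaller log2 change. It was at 1445, 1246 and 1297 for WT, 1301, 1365 and 1395 for AKO, 1367, 1332 and 1235 for BKO and 943, 770 and 697 for DKO. The WT, AKO and BKO libraries formed 1 overlapping range of 1235 to 1445, and DKO lay below it at 60.4% of the WT mean (log2 change -0.73 ± 0.14, adjusted p = 0.00371, limma). The kit does not mark strand, so reads of Hnf4a and of Hnf4aos, an overlapping antisense gene, cannot be told apart. Hnf4aos was at 0.652 to 0.934 in WT and listed at 0 in the 3 DKO libraries, far below the level of Hnf4a.

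Klf4, the factor of villus and goblet cells, was at 373, 310 and 301 for WT, 295, 408 and 281 for AKO, 396, 401 and 281 for BKO and 193, 131 and 133 for DKO. The 3 groups other than DKO overlapped over 281 to 408, and the highest DKO library lay below that range. Within those groups the libraries with high Xist were at 373 to 408 and those with low Xist at 281 to 310. This was seen after the values were known, and all 3 DKO libraries had high Xist. DKO reached 46.6% of the WT mean (log2 change -1.12 ± 0.21, adjusted p = 0.00325, limma). Klf5, the crypt factor of the same family, was at 166, 151 and 164 for WT, 167, 154 and 171 for AKO, 154, 133 and 180 for BKO and 143, 159 and 116 for DKO. The 4 groups of Klf5 overlapped, and DKO was not called (log2 change -0.21 ± 0.14, adjusted p = 0.26, limma).

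Cdx2 fell in DKO to 70.9% of the WT mean. It was at 287, 251 and 282 for WT, 298, 295 and 305 for AKO, 298, 359 and 246 for BKO and 211, 200 and 171 for DKO. The DKO libraries were the lowest 3 of the 12, and the AKO libraries lay above the WT range without a call. The log2 change in DKO was -0.50 ± 0.14 (adjusted p = 0.0217, limma). Without WT replicate 1, WT replicate 3, DKO replicate 2 or DKO replicate 3 it was not called (adjusted p = 0.0755, 0.0694, 0.0517 and 0.0699), at log2 changes of -0.46, -0.47, -0.52 and -0.41.

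Cdx1 showed the smallest fall of the 5, to 76.6% of the WT mean. It was at 155, 163 and 180 for WT, 179, 157 and 174 for AKO, 193, 159 and 205 for BKO and 126, 139 and 117 for DKO. The 3 DKO libraries again lay below the other 9. The log2 change was -0.38 ± 0.12 (adjusted p = 0.0344, limma). The call was lost with scaling by total reads (adjusted p = 0.15), with quantile scaling (adjusted p = 0.0819), with the Xist state as a term (adjusted p = 0.11), with a block for the replicate number (adjusted p = 0.0522) and without any of 6 libraries: WT replicates 1, 2 and 3 (adjusted p = 0.0572, 0.0766 and 0.119), AKO replicate 3 (0.0501) and DKO replicates 1 and 3 (0.0782 and 0.0966).

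Gata6, the GATA factor found along the whole small intestine, was at 56.5, 43.8 and 41.3 for WT, 40.3, 50.3 and 48.8 for AKO, 31.3, 39.0 and 67.2 for BKO and 56.7, 44.3 and 39.8 for DKO. The 4 groups overlapped, their means lay between 45.8 and 47.2, and the BKO group was the widest. The log2 change in DKO was -0.01 ± 0.25 (adjusted p = 0.976, limma), and its sign depended on the scaling. Gata4 was at 0.53, 1.21 and 1.00 for WT, 0.407, 0.70 and 0.877 for AKO, 0.603, 0.507 and 4.59 for BKO and 1.02, 0.53 and 0.457 for DKO. Its DKO change of -0.20 ± 0.42 was not called (adjusted p = 0.743), and with 10 to 33 reads per library in WT and DKO a moderate change was not detectable at this depth. BKO replicate 3, with 125 reads, was the one library above 1.21.

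**Figure D3:**
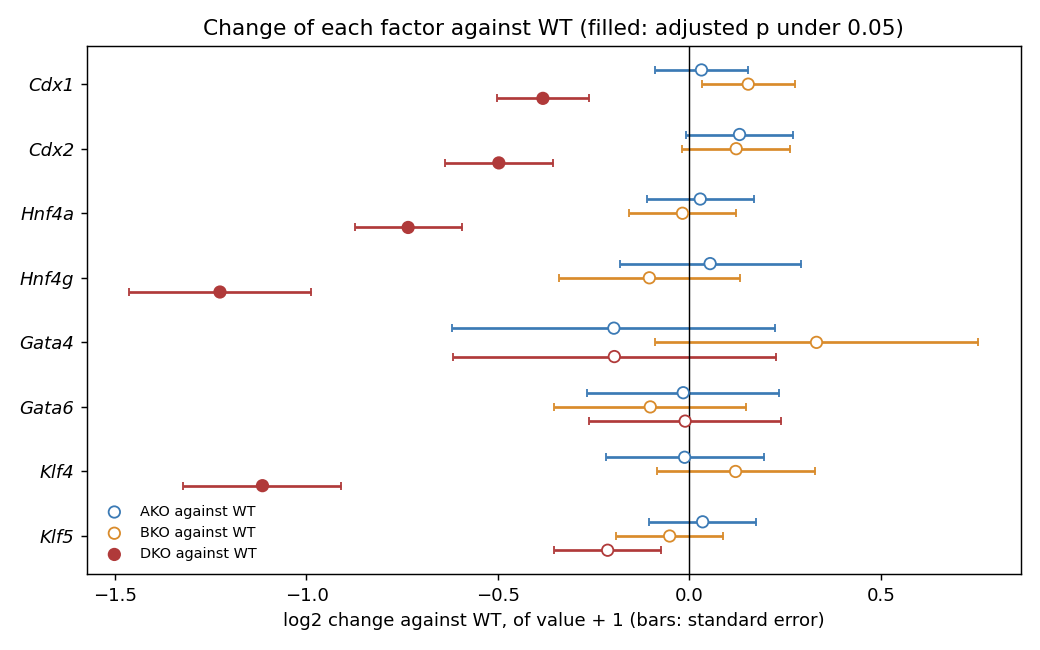
Log2 change of each factor against WT in AKO, BKO and DKO, on the log2 scale of the value plus 1, with standard errors from the fit (n = 3 per group) and filled points for adjusted p under 0.05. The 5 filled points are all DKO, from -0.38 for Cdx1 to -1.23 for Hnf4g.

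Loss of one Rab11 gene was not accompanied by a called change in any of the 8 factors. In AKO against WT the log2 changes of the 8 ran from -0.20 to 0.13 (adjusted p = 1 for each, limma), with 0 members called and 0.00731% of all genes called. In BKO against WT they ran from -0.10 to 0.33 (lowest adjusted p = 0.68), with 0 members called and 0.0439% of all genes called, 0.0366% lower. An unadjusted p under 0.05 was reached by 136 and 1466 of all genes in these comparisons, and by none of the members. Few genes of any kind were called by limma. The edgeR and DESeq2 tests on recovered reads called no member in either comparison. In BKO against WT, DESeq2 called 252 of 18200 genes, 132 higher and 120 lower, and edgeR called 5 of 14824.

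BKO replicate 3 split the 8 factors. It was the lowest of the 9 libraries outside DKO for Hnf4g (248), Hnf4a (1235), Cdx2 (246) and Klf4 (281.0, beside 281.5 in AKO replicate 3). It was the highest of these 9 for Cdx1 (205), Gata4 (4.59), Gata6 (67.2) and Klf5 (180). Its log2 difference from BKO replicates 1 and 2, taken as their mean, was -1.04 for Hnf4g, -0.50 for Klf4, -0.41 for Cdx2 and -0.13 for Hnf4a, and 0.22 for Cdx1, 0.33 for Klf5, 0.92 for Gata6 and 1.85 for Gata4. Genes of the proximal intestine were also split in this library. Fabp1 was at 242 against 7.10 and 34.97 in the other BKO libraries, and Apoa4 at 3068 against 466 and 459. Sis was lower, at 1732 against 2111 and 2808, and Lct had 0 reads in every BKO library. The ileal genes were all lower in BKO replicate 3 than in replicates 1 and 2. Fabp6 was at 2914 against 10290 and 7212, and Slc10a2 at 587 against 769 and 836. Slc51a was at 707 against 1661 and 1589, and Slc51b at 203 against 354 and 342. BKO replicate 3 also had low Xist (0.22 against 201 and 254 in BKO replicates 1 and 2). Its differences from them cannot be told apart from a difference of Xist state. Without BKO replicate 3, the BKO change of Hnf4g moved from -0.10 to 0.24 and that of Gata4 from 0.33 to -0.28. Neither change was called (adjusted p = 0.478 and 0.637, limma).

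The same 5 factors were lower in DKO than in each single loss. Against AKO, 5 of 8 members were lower and 0 higher, where 32.2% of all genes were called, 15.3% higher and 17% lower: Hnf4g fell by 1.28 on the log2 scale, Klf4 by 1.10, Hnf4a by 0.76, Cdx2 by 0.63 and Cdx1 by 0.41 (adjusted p = 0.00319, 0.00337, 0.00306, 0.00761 and 0.0248, limma). Against BKO these 5 were again lower and 0 higher, where 23% of all genes were called, 11% higher and 12% lower. There Klf4 fell by 1.24, Hnf4g by 1.12, Hnf4a by 0.72, Cdx2 by 0.62 and Cdx1 by 0.54 (adjusted p = 0.00324, 0.00825, 0.0061, 0.0113 and 0.0112). The comparisons with DKO share the 3 DKO libraries and are not independent of one another. Cdx1 was the least stable: against AKO it was called in 19 of 27 alternatives, and not without AKO replicate 1 or 3 or DKO replicate 1 or 3 (adjusted p = 0.0829, 0.0731, 0.06 and 0.0752), and against BKO in 21 of 27. With only the BKO and DKO libraries in the fit, Klf4 alone was called of the 8, where calls over all genes went from 3144 to 699 of 13675. Over all genes the comparison with BKO gave 1631 calls without BKO replicate 1, 1960 without BKO replicate 2, 1797 without DKO replicate 2 and 6224 without BKO replicate 3.

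The interaction asks whether the DKO change differs from the sum of both single changes on the log scale. It was called for Klf4 at -1.22 ± 0.29 (adjusted p = 0.0461, limma), 1 of 8 members, lower, where 3.96% of all genes were called, 2.08% higher and 1.88% lower. Klf4 lost this call without any of 10 libraries (all but BKO replicate 3 and DKO replicate 1; adjusted p up to 0.107), with a pseudocount of 0.1 (0.0526), without the filter (0.0549), by edgeR (0.0537) and with values scaled to the median level of 12 pan-epithelial genes (0.0522). Hnf4g at -1.18 ± 0.33, Cdx2 at -0.75 ± 0.20, Hnf4a at -0.75 ± 0.20 and Cdx1 at -0.57 ± 0.17 missed the threshold (adjusted p = 0.0689, 0.0578, 0.0582 and 0.0789). Without BKO replicate 3 the interaction was called for 4181 of 13653 genes and for 5 members: Hnf4g (-1.52, adjusted p = 9.2e-05), Cdx2 (-0.89, 0.00293), Klf4 (-1.39, 0.00356), Hnf4a (-0.79, 0.0124) and Cdx1 (-0.49, 0.0407). The BKO group then held only libraries with high Xist.

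Related factors were compared as a ratio within each library, each value plus 1, which hardly depends on the scaling between libraries except for Gata4, whose values are near the added 1. The log2 ratio of Hnf4a to Hnf4g was 1.62 ± 0.0562 (SD, n = 3) for WT, 1.59 ± 0.151 for AKO, 1.70 ± 0.53 for BKO and 2.11 ± 0.158 for DKO. The DKO libraries, at 1.93 to 2.22, lay above the WT range of 1.55 to 1.66, and BKO replicate 3 lay at 2.31. The ratio of Klf4 to Klf5 was 1.02 ± 0.148 for WT, 0.976 ± 0.369 for AKO, 1.20 ± 0.493 for BKO and 0.121 ± 0.362 for DKO, and the DKO range of -0.27 to 0.434 lay below the WT range of 0.871 to 1.17. Each of these differences between DKO and WT (0.492 and -0.90) had an exact two-sided permutation p = 0.1, the smallest that 3 against 3 libraries allow, and p = 0.2 adjusted over the 4 pairs. The ratio of Cdx1 to Cdx2 went from -0.72 to -0.60 and that of Gata4 to Gata6 from -4.66 to -4.84, with overlapping ranges (exact permutation p = 0.5 and 0.4).

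**Figure D4:**
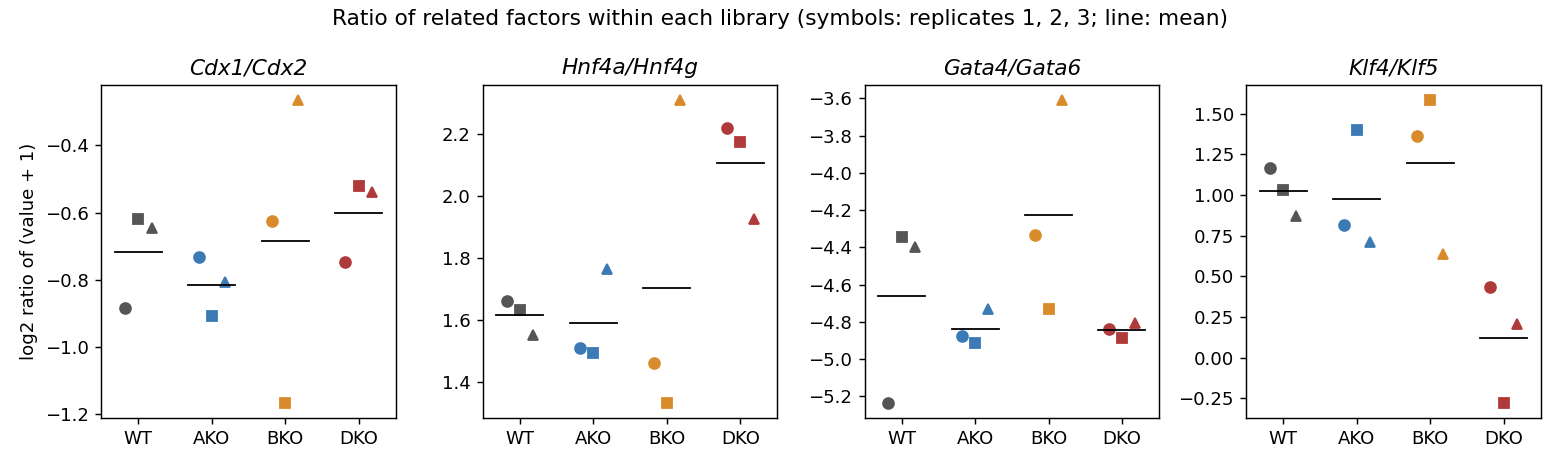
Log2 ratio of related factors (each value plus 1) in each library, with 3 libraries per group and a line at the mean; the vertical axes differ between panels. The Hnf4a to Hnf4g ratio is highest in BKO replicate 3 and DKO, and the Klf4 to Klf5 ratio is lowest in DKO.

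The likeness of patterns was measured as the root mean square distance between log2 profiles over the 12 libraries, each centred on its WT mean. Among the members, Cdx1 and Klf5 lay closest at 0.154, followed by Cdx2 with Hnf4a at 0.181 and Cdx1 with Cdx2 at 0.219. Hnf4g lay nearest to Klf4 at 0.223, and its distance to Hnf4a was 0.343. Over all tested genes with a mean of at least 2, the nearest to Hnf4a were Zfp629, Atp8b1 and Fzd5 (0.067 to 0.0867), and those nearest to Hnf4g were Nags, Wbp1 and Tmem19 (0.108 to 0.116). Atp8b1 encodes a lipid flippase, Fzd5 a Wnt receptor and Nags an enzyme that makes a cofactor of the urea cycle. The nearest to Klf4 were Dgkd, Epha1 and Sox13 (0.118 to 0.15), to Cdx2 Csnk2a1, Mob3b and Inppl1 (0.0779 to 0.0947), and to Cdx1 Bcl2l13, Fut4 and Atad2b (0.0796 to 0.0854). For Klf5 they were Galnt12, Tm9sf4 and Slc16a13 (0.0917 to 0.0937), for Gata6 Lipt1 and Akip1 (0.195 and 0.199), and for Gata4 Anxa13, Gjb1 and Pde8b (0.279 to 0.296).

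Genes known as HNF4 targets were lower in DKO in most cases. Of 26 absorptive genes on that list, 22 fell and 0 rose against WT, where 17.2% of all genes fell, and the list median was -1.61 against -0.00854 over all genes tested. Enpep, an aminopeptidase of the brush border, fell from 2920 ± 405 to 309 ± 25.9 (log2 change -3.23 ± 0.41, adjusted p = 0.000656, limma, n = 3 per group). Apoc3, an apolipoprotein of lipid-carrying particles, fell from 34.4 ± 3.11 to 2.86 ± 0.652 (-3.21 ± 0.42, adjusted p = 0.000746). Dgat1, an enzyme of triglyceride synthesis, fell from 312 ± 23 to 99.5 ± 11.7 (adjusted p = 0.000661), and Cyp2c65, a cytochrome P450, from 51.8 ± 14 to 6.56 ± 0.665 (adjusted p = 0.00108). The 4 not called, named after their values were seen, were Apoa4, Apoc2, Fabp1 and Acsl5 (adjusted p = 0.743, 0.302, 0.662 and 0.861). Against AKO 21 of the 26 fell and against BKO 20, with medians of -1.46 and -1.69 and 0 higher, and in AKO or BKO against WT 0 were called. These genes are also general genes of mature enterocytes, and their change was not tested for dependence on HNF4.

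Genes known as targets of the CDX factors held calls of both signs. Of 19 tested, 8 fell and 4 rose in DKO against WT, with a median of -0.0804 that turned positive with scaling by total reads (0.00818), quantile scaling (0.0391) and scaling to the median level of pan-epithelial genes (0.171). Of all genes tested 17.2% fell and 14.6% rose. The sucrase gene Sis fell from 1912 ± 193 to 301 ± 68.2 (log2 change -2.68 ± 0.28, adjusted p = 0.000244, limma), the fructose transporter gene Slc2a5 from 36.7 ± 2.87 to 2.17 ± 1.03 (adjusted p = 0.00154) and the chemokine gene Ccl25 from 454 ± 46.7 to 109 ± 15.1 (adjusted p = 0.00186). Fut2, a fucosyltransferase, rose from 4.01 ± 1.26 to 40.3 ± 17.2 (adjusted p = 0.000956). Of 7 ileal genes that GATA4 is known to repress, 5 fell and 0 rose (3 fell without DKO replicate 2), among them Fabp6 from 8483 ± 2460 to 924 ± 185 (adjusted p = 0.00173), Slc51a, a subunit of the basolateral bile acid exporter, from 1479 ± 169 to 409 ± 66.6 (adjusted p = 0.00202), and the transcription factor gene Osr2 from 134 ± 10.6 to 32.7 ± 11.3 (adjusted p = 0.00128), while Gata4 itself was not called. Of 7 tested proximal genes that need GATA4, 1 fell (Sis) and 1 rose (Cybrd1, an iron reductase, from 2.32 ± 0.772 to 6.65 ± 2.6, adjusted p = 0.00942).

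Genes known as KLF4 targets were split, with 2 of 7 tested higher and 2 lower, beside 14.6% and 17.2% of all genes. Without any 1 of the WT libraries 0 were higher and 1 lower, and without any 1 of the DKO libraries 1 was higher and 1 lower. The alkaline phosphatase gene Alpi fell from 450.3 ± 26.1 to 226 ± 62.3 (adjusted p = 0.00707, limma, n = 3 per group) and Cdkn1b, a cell cycle inhibitor, from 63.5 ± 1.53 to 43.4 ± 5.04 (adjusted p = 0.0436). Cdkn1a, another cell cycle inhibitor, rose from 314 ± 7.26 to 468 ± 55.1 (adjusted p = 0.0214) and Odc1, the first enzyme of polyamine synthesis, from 166 ± 19.3 to 405 ± 74.4 (adjusted p = 0.0275). Of 10 genes known as KLF5 or crypt growth targets, 3 rose and 2 fell (2 and 1 without WT replicate 1, 5 and 3 without BKO replicate 3). The growth factor gene Pdgfa rose from 15.8 ± 1.31 to 32.4 ± 5.22 (adjusted p = 0.00208) and the early response gene Egr1 from 22.1 ± 7.75 to 131 ± 24.4 (adjusted p = 0.000524). Cyclin D1 (Ccnd1) fell from 209 ± 21.5 to 107 ± 24.9 (adjusted p = 0.0152) and Eno3 from 16.6 ± 3.08 to 6.19 ± 0.645 (adjusted p = 0.00164).

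**Figure D5:**
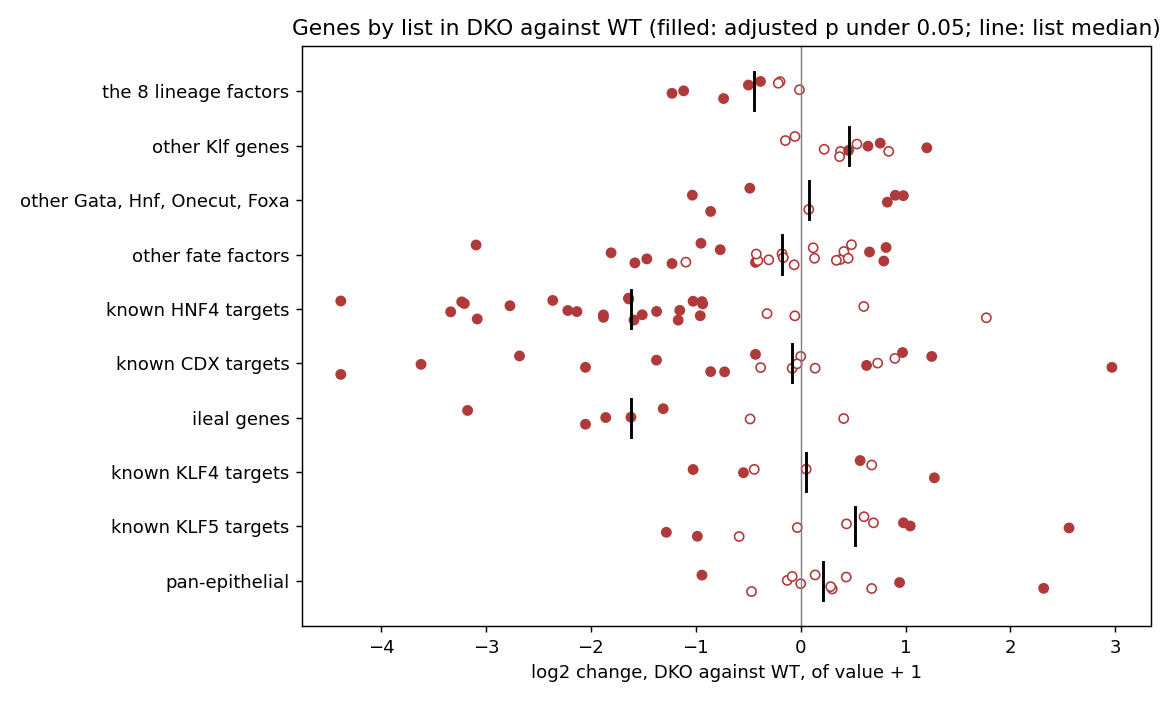
Log2 change in DKO against WT (value plus 1) of each tested gene by list, with filled points for adjusted p under 0.05 and a line at the list median. Known HNF4 targets centre on -1.61 and other Klf genes on 0.457, while the 8 lineage factors lie between -1.23 and -0.01.

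Other genes of the same families moved in both directions in DKO. Of 15 other Klf genes 11 were tested, and 4 rose and 0 fell by limma, with a median of 0.457. DESeq2, which tested all 15, called 4 higher and 1 lower. The number that rose was 1 without WT replicate 1 or DKO replicate 2, and 2 without WT replicate 3, DKO replicate 1 or DKO replicate 3 and with the replicate block, where 14.6% of all genes rose in the full comparison. Klf6, a factor linked to growth control, rose from 412 ± 47.1 to 700.1 ± 109 (by 0.76 ± 0.15 on the log2 scale, limma adjusted p = 0.00429), and Klf10, a TGF-beta early response gene, rose from 42.0 ± 9.24 to 96.8 ± 10.5 (1.203 ± 0.332, adjusted p = 0.0196). Klf7 rose from 2.47 ± 0.342 to 4.51 ± 1.32 (adjusted p = 0.0307) and Klf16 from 17.4 ± 2.33 to 24.2 ± 2.13 (adjusted p = 0.0432), which lies beside the fall of Klf4 in the same libraries. Of 7 tested genes among the remaining Gata, Hnf, Onecut and Foxa factors, 3 fell and 3 rose, with Onecut2 among the latter. Of all genes tested, 17.2% fell and 14.6% rose. Gata5, which was present in WT where Gata4 was near 0, fell from 101 ± 15.7 to 49.0 ± 8.39 (-1.03 ± 0.22, adjusted p = 0.00616). Foxa1 and Foxa3, forkhead factors of endoderm, rose from 33.4 ± 1.58 to 67.0 ± 7.65 and from 16.6 ± 1.56 to 30.2 ± 2.56 (adjusted p = 0.00201 and 0.00691). Onecut2, a factor of proximal intestine, was at 0.404 ± 0.171 in WT and 1.63 ± 0.366 in DKO. It had 32 to 39 reads per DKO library and at most 16 in any other library. It passed the filter on low values only through the DKO libraries, so its call is not support for a rise.

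Among 25 tested factors of absorptive and secretory fate, 8 fell and 3 rose in DKO against WT, beside 17.2% and 14.6% of all genes. Without WT replicate 1 these counts were 5 and 1, without DKO replicate 1 5 and 2, and without DKO replicate 2 8 and 1. Ppara, the fatty acid receptor, fell from 63.0 ± 4.85 to 6.51 ± 0.757 (log2 change -3.09 ± 0.39, adjusted p = 0.000606, limma, n = 3 per group). The vitamin D receptor gene Vdr fell from 336 ± 21.1 to 96.7 ± 20.3 (-1.81 ± 0.33, adjusted p = 0.00301), and Nr5a2, a nuclear receptor of crypt renewal and bile acid metabolism, from 45.9 ± 2.91 to 14.7 ± 0.429 (-1.58 ± 0.18, adjusted p = 0.000376). Gfi1, a secretory lineage repressor, fell from 5.59 ± 1.32 to 2.37 ± 0.294 (adjusted p = 0.00434). The 3 that rose, named after their values were seen, were the goblet factor Spdef, the crypt and Paneth factor Sox9 and the Wnt effector Tcf7l2 (adjusted p = 0.0224, 0.0115 and 0.0183). Of 7 tested regional factors 3 fell and 1 rose, and 1 fell without any 1 of the DKO libraries, WT replicate 1 or 3, or AKO replicate 1 or 3. They include Tbx3 from 116 ± 10.1 to 54.5 ± 16.6 (adjusted p = 0.0487), Gata5 as above, and Nkx2-3, a mesenchymal factor, upward from 5.76 ± 0.526 to 10.0 ± 2.13 (adjusted p = 0.021).

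Of 15 tested cofactors and repressors of the members, 5 fell and 4 rose in DKO against WT, beside 17.2% and 14.6% of all genes. The counts were 2 and 0 without WT replicate 1, 2 and 1 without WT replicate 3, 4 and 1 without WT replicate 2 or DKO replicate 2, 4 and 2 without DKO replicate 1, and 2 and 2 without DKO replicate 3. Ppargc1a, a coactivator of HNF4A and of oxidative metabolism, fell from 20.4 ± 2.95 to 2.94 ± 0.281 (adjusted p = 0.0184, limma, n = 3 per group). The nuclear receptor coactivator gene Ncoa1 fell from 54.3 ± 5.5 to 29.4 ± 3.71 (adjusted p = 0.0036) and the deacetylase gene Hdac1 from 108 ± 5.97 to 78.1 ± 2.43 (adjusted p = 0.00369). Wwp1, a ubiquitin ligase that targets KLF5, rose from 29.1 ± 4.83 to 41.2 ± 0.901 (adjusted p = 0.0146).

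Some markers of cell content moved beside these results, and their part in them was not tested. Over all genes tested, 14.6% were higher and 17.2% lower in DKO against WT. The 2 of 12 pan-epithelial genes higher and 2 of 12 crypt genes lower, given next, lie near those shares. The summed level of 12 pan-epithelial genes, none of them at 0, was 26890 to 30270 in WT and 28590 to 38030 in DKO, with 2 of 12 higher, 1 lower and a median log2 change of 0.212. Crypt and cycling genes summed to 880.1 to 1040 in WT and 639 to 895 in DKO (0 of 12 higher, 2 lower), and villus tip genes to 588 to 793 and 837 to 1180 (5 of 9 higher, 0 lower). With the Xist state as a term or only the groups compared 2 villus tip genes were lower, and 3 with quality weights. The villus tip list also holds the early response genes Fos and Junb. The 8 jejunal enterocyte genes summed to 11760 to 14400 in WT and 2762 to 3234 in DKO (5 of 7 tested lower, median -1.88), and the 4 ileal genes to 8488 to 13710 and 1609 to 2163 (3 of 4 lower, median -1.58). These are not results apart from the target lists above. Fabp1, Fabp2, Apoa1, Apoa4, Alpi and Slc5a1 are also HNF4 targets, and Sis and Lct are CDX and GATA4 targets. The 4 ileal genes are also among those that GATA4 represses. Fibroblast genes summed to 264 to 384 in WT and 823 to 1339 in DKO (7 of 8 higher), with Col3a1 at 97.9 ± 27.3 and 318 ± 88.7. Endothelial genes summed to 59.07 to 78.05 and 89.7 to 125 (3 of 10 higher), macrophage genes to 219 to 477 and 491 to 728 (3 of 8 higher), and smooth muscle genes to 1083 to 1855 and 1551 to 2630 (0 of 9 called). T and NK cell genes summed to 301 to 347 in WT and 29.0 to 68.7 in DKO (5 of 10 lower, 10 without BKO replicate 3, and 0 without replicate 2 of WT or of DKO), and B and plasma cell genes to 1805 to 1946 and 646 to 1094 (0 of 7 tested called). The 12 pan-epithelial genes were used for scaling in 2 ways, both chosen after the data were seen, and the ways moved the factors in opposite directions. Scaling to the median of their gene-wise ratios levelled the list (its DKO change against WT became 0.00915), took the median change of all genes from -0.00854 to -0.191 and gave 1174 higher and 2987 lower calls. All 5 factors were then called, Hnf4g at -1.43 (adjusted p = 0.00209), Klf4 at -1.32 (0.000681), Hnf4a at -0.94 (0.00118), Cdx2 at -0.70 (0.0105) and Cdx1 at -0.58 (0.0306). Scaling to the median of their levels did not level the list (its change became 0.464), took the median of all genes to 0.222 and gave 2967 higher and 1245 lower calls. Under it Hnf4g (-0.98, adjusted p = 0.00596), Klf4 (-0.86, 0.00637) and Hnf4a (-0.48, 0.0244) were called, and Cdx2 (-0.25, 0.203) and Cdx1 (-0.13, 0.558) were not. Among libraries with high Xist, the 3 DKO libraries and WT replicate 1 showed Hnf4g at 170 to 202 against 456, Klf4 at 131 to 193 against 373 and Hnf4a at 697 to 943 against 1445, with 1 WT library and therefore no test. AKO replicate 2 and BKO replicates 1 and 2 also had high Xist. They had Hnf4g at 483 to 528, Klf4 at 396 to 408 and Hnf4a at 1332 to 1367.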

How the data were processed

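RNA of 12 libraries, 3 each of WT, AKO, BKO and DKO, was prepared without strand marking (TruSeq RNA v2, per the labels). The deposited values are a signal, fragment counts over a size factor of each library (fpm), with library sums of 908078 to 1081215. Per the submitters' processing notes, FastQC 0.11.3, Trimmomatic 0.36, DESeq2 and the build mm9 were used. The name of the deposited data holds that of the aligner HISAT2, and the counting tool and annotation are not given in sources used here. Dividing by the value of 1 read gave whole numbers (tolerance 0.001) for 100% of the deposited values, so reads were recovered (19200380 to 29828587 per library). The planned test for normalized values was kept: limma 3.58.1 (R 4.3.3) with a trended prior on log2(value + 1), 1 coefficient per group, all 12 libraries, genes reaching 1 in 3 or more libraries, two-sided, adjusted p under 0.05. The pseudocount understates changes of low genes such as Gata4. On the recovered reads, edgeR 4.0.16 called 4145 genes and DESeq2 1.42.0 called 5142 in DKO against WT, and limma 4348. The tests were checked on simulated data. Other alternatives changed the pseudocount, filter, scaling, weights, replicate block, Xist state or left out 1 library. Ratios used exact permutation tests. The main test did not pair the libraries by replicate number.

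The members and gene lists were chosen, from general knowledge, with earlier results of these data known. Text genes were the 8 members, up to 4 per factor or target list with the smallest p in DKO against WT, up to 2 per marker list with the highest mean, and the 3 genes nearest each member by distance of profiles. Symbols of predicted genes (Gm, Rik) were passed over among the nearest. The regional genes Lct, Fabp1, Apoa4, Slc10a2 and Pdx1, and Xist and Hnf4aos, lie outside this rule or were chosen after their values were seen. Values are given for some of the marker genes. A few genes that the rule or the lists hold are not reported here. Promoter sequences are from RefSeq (GRCm38.p6), matched by symbol, and no coordinate of the files' build was used.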

Additional observations from a re-analysis of the deposited data

Results flagged for a closer look

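The effect of losing Rab11b differed between mice with and without Rab11a for Klf4: the interaction was -1.22 (adjusted p = 0.0461, limma, n = 3 per group). The log2 difference of Klf4 from WT to BKO was 0.12 and was not called, and that from AKO to DKO was -1.102 (adjusted p = 0.00337). The call was lost when any of 10 of the 12 libraries was left out. Outside DKO the level of Klf4 went with the Xist state, of which the groups hold unlike shares. The other 7 members were not called in this test.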

How the results depend on the processing

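Hnf4a, Hnf4g and Klf4 stayed lower and called in DKO against WT under all 27 alternatives, with log2 changes of -0.94 to -0.48, -1.52 to -0.98 and -1.40 to -0.86. Cdx2 was called in 22 of 27 and Cdx1 in 16 of 27. The number of members called in DKO against WT was 3 to 5 when 1 library was left out (3 without replicate 1 or 3 of WT, or replicate 3 of DKO) and 3 with scaling to the median level of pan-epithelial genes, and with the replicate block it was 4, Cdx1 being lost (adjusted p = 0.0522). In DKO against BKO it was 1 with only the groups compared and 2 with that scaling. In the interaction it was 0 with a pseudocount of 0.1, without a filter, by edgeR and with pan-epithelial level scaling, 2 with scaling to the median ratio of those genes, 4 with quality weights or with the Xist state as a term, 5 by DESeq2, and 0 to 5 when 1 library was left out (5 without BKO replicate 3, 2 without DKO replicate 1). The DKO change of Gata6 turned positive with scaling by total reads (0.0757), quantile scaling (0.0431), the Xist state (0.065), edgeR (0.00659) and pan-epithelial level scaling (0.235), and was -0.15 to 0.123 with 1 library left out. That of Gata4 was 0.302 with the Xist state and that of Klf5 0.0364 with pan-epithelial level scaling. With quality weights, whose iteration stopped before its tolerance, the BKO changes of Hnf4g and Gata4 were 0.15 and -0.0404, and with 1 library left out they ran from -0.30 to 0.242 and from -0.28 to 0.662. None of these sign changes was a call in either direction, and the causes were not tested. Of 614 values of members given above as ranges, 56 changed sign and 1 was called, Klf5 in DKO against AKO with the median ratio scaling (-0.57, adjusted p = 0.0271). Over all genes, calls in DKO against WT numbered 4348, 9655 with quality weights, and 2742, 2843 and 2691 without WT replicate 1, WT replicate 3 and DKO replicate 2; calls in the interaction numbered 541, 352 by edgeR, 1749 by DESeq2, 329 with the replicate block and 4181 without BKO replicate 3. Same-numbered libraries showed no shared deviation over all genes (correlations -0.30 to 0.184 in 18 pairs, 4 of them over 0.1). This does not settle whether the replicate numbers mark a pairing. Depth limits Gata4, which had at most 33 reads in any library but BKO replicate 3.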
